A study of Mus musculus with 8 samples.

Results

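The 48 genes described here build the machinery that copies DNA in S phase, from the proteins that mark replication origins to the E2F factors and cyclins that open the phase. They were taken by symbol from a table of 24015 gene symbols, as genes known to act in DNA copying and its control, and all 48 were found. The choice was made with earlier results of these data known. RNA was sequenced from cultured heart fibroblasts, the connective tissue cells of the heart, in a time course of osteogenic induction, a treatment that pushes such cells towards a bone-forming fate. The mice were wild type, of strain C57BL/6J and aged 8 weeks. Cells were harvested untreated (day 0, labelled CNTR) and after 7, 14 and 21 days in differentiation medium, and each of the 4 times gave 2 libraries. Nothing in the labels ties the 2 libraries of a time to different mice or dishes, so every p-value below rests on the spread between these particular libraries, which may be technical. No library analysed here came from cells kept for the same days without the medium, so the medium and time in culture cannot be told apart.

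Before a cell divides, origins are licensed by the origin recognition complex, which with Cdc6 and Cdt1 loads the ring-shaped MCM helicase onto DNA. Kinases of S phase then fire the loaded origins, polymerases copy both strands behind the helicase, a sliding clamp holds the polymerases in place, and enzymes outside the fork supply nucleotides and histones. Most of these genes are transcribed under E2F factors as cells leave quiescence, and cells that stop dividing keep their transcripts low.

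Values are normalized counts, reads per gene divided by a size factor of the library, and between 13399313 and 21883498 reads were assigned to genes per library. Libraries of the same time correlated at 0.988 to 0.994 on the log2 scale. Their reads differed more at days 14 and 21 than at days 0 and 7. The chi-squared per degree of freedom between them was 4.91 at day 0, 3.48 at day 7, 19.0 at day 14 and 18.6 at day 21. The limma fit below uses a common spread per gene for all times. All 10 fibroblast markers had reads, and their summed level was 719123 and 712490 normalized counts at day 0, 481581 and 507586 after 7 days, 366908 and 322572 after 14 and 471493 and 539298 after 21. Against day 0, 3 of the 10 were lower and 5 higher after 7 days and again after 21, while after 14 days 5 were lower and 4 higher. Of all tested genes, 27.9% were lower than day 0 at day 7, 35.6% at day 14 and 29.5% at day 21. The shares higher were 27.5, 35.2 and 29.8%, and these shares stand beside all marker counts here. Macrophage markers moved with time, and 12 of 12 were higher than at day 0 at each later time. Their summed level was 1141 and 1219 normalized counts at day 0, 12111 and 9759 after 7 days, 20619.9 and 38749 after 14 and 20475 and 20589.5 after 21. Of 9 cardiomyocyte markers, Myh6 was at 0 in every library, 3 had enough reads to test, and the sum of the 9 was 1213 and 1139 at day 0, 11754 and 11092 after 7 days, 22464 and 28817 after 14 and 10599 and 5871 after 21. Adipocyte markers also moved, with a sum over 7 genes of 1212 and 930 at day 0 and between 7348 and 12119 later, and of the 4 tested 3 were higher than day 0 at day 7 and 4 at days 14 and 21. Of 7 tested endothelial markers 1 was lower than day 0 at day 7, 4 at day 14 and 5 at day 21, and the sum of the 8 was 662 and 701 at day 0 and between 302 and 605 later. Of the 5 mesothelial markers 3 were lower than day 0 at each later time. The number higher was 2 at day 7 and 1 at each of days 14 and 21. The sum of the 5 was 1277 and 1169 at day 0, 846 and 856 after 7 days, 1595 and 1671 after 14 and 957 and 430 after 21. Of 7 lymphocyte markers, Cd3e, Cd3g and Ms4a1 were at 0, and the sum of the 7 was at most 3.57. The part of these other markers in the results below was not tested, and in bulk RNA fewer cells of a type and less RNA per cell cannot be told apart.

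Nearly the whole set fell in the first week and stayed low. At day 7, 47 of the 48 genes were lower than at day 0 in the limma fit (adjusted p below 0.05), where 27.9% of the 13527 tested genes were lower. Their median log2 fold change, on log2(normalized count + 1), was -1.62, against -0.01 over all tested genes, and 39 of them fell at least 2-fold, against 9.05% of tested genes. At day 14, 45 of 48 were lower than at day 0, against 35.6% of tested genes, with a median of -1.80 and 35 at least 2-fold lower, against 16.0%. At day 21, 46 of 48 were lower, against 29.5%, with a median of -1.72 and 39 at least 2-fold lower, against 10.1%. The median over all tested genes was 0.00 at both of these times.

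By gene, 44 of the 48 were lower at all 3 later times, 2 at 2 of them and 2 at 1. The limma fit called 0 members higher than day 0 at any later time, where 27.5% of tested genes were higher at day 7, 35.2% at day 14 and 29.8% at day 21. At an unadjusted p below 0.05 the counts of higher members were 0, 1 and 0 at days 7, 14 and 21. For the same times edgeR called 0, 1 and 0 higher, and DESeq2 called 0 in each. Orc6 was the member higher at day 14 by edgeR. Summed over the 48 genes, the level was 25963 and 26457 normalized counts at day 0, 9062 and 9260.2 after 7 days, 9103 and 9371 after 14 and 8989 and 8549.8 after 21. The set held 0.149 and 0.151% of all normalized counts at day 0 and between 0.0450 and 0.0537% in the 6 later libraries. Both libraries of a later time lay below both day 0 libraries for 47 genes at day 7, 47 at day 14 and 46 at day 21, against 42.4, 42.3 and 40.7% of tested genes. By the mouse annotation, 17 of the 48 overlap another gene on the opposite strand, and the strand of the libraries is not given in the sources used here. They are Brca2, Ccne2, Cdc45, Chaf1a, E2f8, Fen1, Gins2, Lig1, Mcm7, Orc1, Orc6, Pole, Rfc2, Rfc4, Rfc5, Slbp and Tk1. The levels of all 17 are uncertain to that extent, also where this is not repeated below. All 48 passed the filter on low values, at least 10 normalized counts in at least 2 libraries. Mcm10 and E2f8 passed through their day 0 level alone. A fall was thus the change open to Mcm10 and E2f8, which are counted among the lower members.

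**Figure D1:**
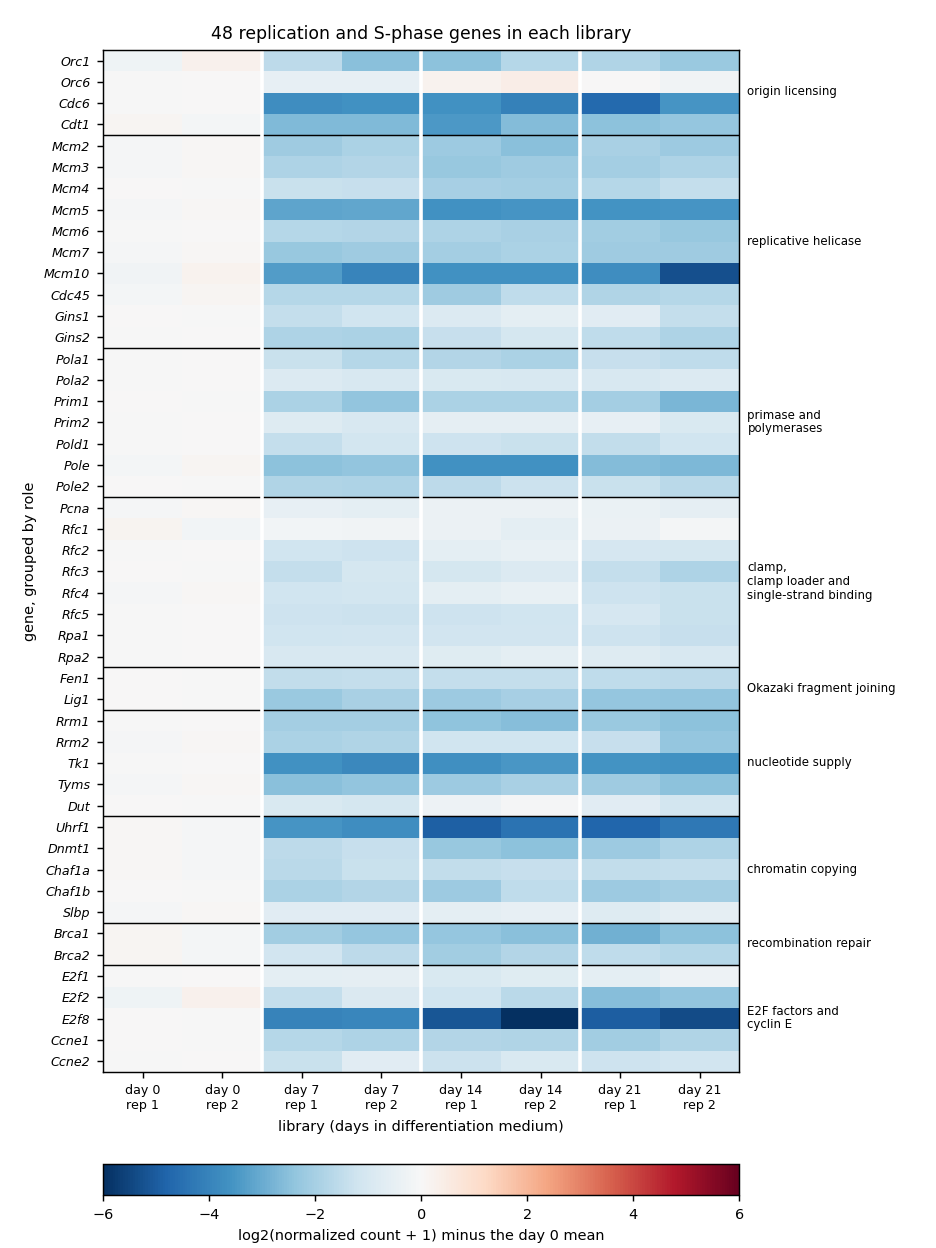
Level of the 48 genes (rows, grouped by role) in the 8 libraries (columns, by days in medium), as log2(normalized count + 1) minus the mean of the 2 day 0 libraries. Blue marks levels below day 0, and 44 of the 48 genes were lower than day 0 at all 3 later times, with Orc6 and Rfc1 among the palest.

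The 4 licensing genes were all lower at day 7, with falls that ranged from very large in Cdc6 to small in Orc6. Cdc6, the ATPase that helps load the MCM ring, had 131 and 137 at day 0, 9.11 and 9.81 after 7 days, 10.02 and 7.01 after 14 and 4.27 and 10.7 after 21 normalized counts. At day 7 it stood at 7.06% of its day 0 mean (log2 fold change -3.69 ± 0.39, adjusted p = 6.79e-06). Its partner in loading, Cdt1, had 236 and 204 at day 0, 33.7 and 33.9 after 7 days, 19.1 and 35.1 after 14 and 39.5 and 43.8 after 21, and also fell in the first week (log2 fold change -2.66 ± 0.26, adjusted p = 3.48e-06). Every later library of these genes lay far below both day 0 libraries. Orc1, the origin recognition subunit whose amount cycles in dividing cells, had 33.4 and 48.4 at day 0, 12.8 and 6.24 after 7 days, 6.38 and 11.7 after 14 and 10.7 and 7.78 after 21 (log2 fold change -2.05 ± 0.44, adjusted p = 0.00166, day 7 against day 0).

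Orc6, the smallest subunit of the same complex, took another course. It had 311 and 322 at day 0, 223 and 224 after 7 days, 368 and 411 after 14 and 325 and 271 after 21 normalized counts. It fell at day 7 (log2 fold change -0.50 ± 0.13, adjusted p = 0.00549), and after 14 days both libraries lay above both of day 0, as did 43.1% of tested genes, without a call (log2 fold change 0.30 ± 0.13, adjusted p = 0.0521). At day 21 its libraries overlapped those of day 0 (log2 fold change -0.09 ± 0.13, adjusted p = 0.566). After removal of the trend on transcript length and GC content the value was -0.42 at day 14 (adjusted p = 0.00205) and -0.46 at day 21 (adjusted p = 0.00137). The other subunits, Orc2 to Orc5, were not members, and apart from Orc2 they are named here after their values were seen. Orc2, Orc3 and Orc4 had log2 fold changes of 0.05 ± 0.11, 0.08 ± 0.11 and 0.18 ± 0.12 at day 7 and were not called, and Orc5 was higher (log2 fold change 0.79 ± 0.13, adjusted p = 0.000179).

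All 10 genes of the replicative helicase and its activators were lower at day 7, with a median log2 fold change of -1.83. Mcm5 had 879 and 959.7 at day 0, 100.2 and 103 after 7 days, 72.9 and 77.1 after 14 and 74.8 and 76.8 after 21 normalized counts. It stood at 11.1% of its day 0 mean at day 7 (log2 fold change -3.16 ± 0.14, adjusted p = 2.83e-09) and at 8.16% at day 14 (-3.60 ± 0.14). Among the other ring subunits the log2 fold change at day 7 was -2.01 ± 0.15 for Mcm2, -1.81 ± 0.13 for Mcm3, -1.37 ± 0.12 for Mcm4, -1.74 ± 0.11 for Mcm6 and -2.20 ± 0.13 for Mcm7, each called with adjusted p at or below 1.45e-06. Mcm10, which helps the loaded ring start to unwind, had 95.5 and 132 at day 0, 10.02 and 6.24 after 7 days, 8.20 and 8.18 after 14 and 7.48 and 1.95 after 21. Its fall at day 7 (log2 fold change -3.67 ± 0.48, adjusted p = 3.71e-05) rests on 18 reads in the day 7 libraries together and 221 in those of day 0. Mcm10 passed the filter on low values through its day 0 level alone, so a fall was the change open to it.

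The ring carries each of Mcm2 to Mcm7 once, so their transcripts can be set side by side after division by transcript length, as normalized counts per kilobase. At day 0 the highest of the 6, Mcm6, was 1.62 and 1.74 times the lowest, Mcm4. In all 6 later libraries Mcm5 was the lowest, and the highest was between 3.66 and 4.85 times it. Mcm5 stood at 109 and 109% of the median of the other 5 in the day 0 libraries. The same share was 36.0 and 35.4% after 7 days, 36.5 and 35.0% after 14 and 32.2 and 29.6% after 21. The later libraries thus lay in a narrow band that did not overlap with day 0.

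**Figure D2:**
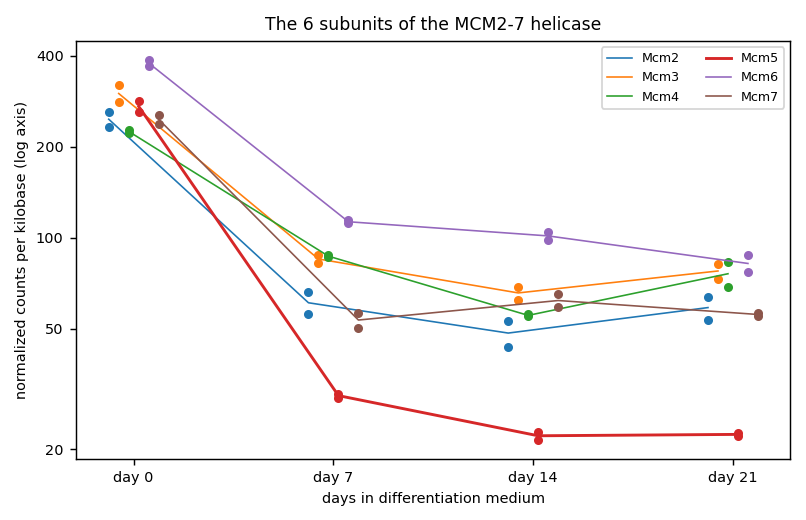
Transcript level of the 6 subunits of the MCM helicase ring in normalized counts per kilobase of transcript (log axis) against days in differentiation medium. Points are libraries and lines join the means of 2, and Mcm5 (thick red line) was the lowest of the 6 in every library from day 7 on.

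Cdc45 and the GINS proteins join the ring to make the active helicase. Cdc45 had 133 and 157 at day 0, 42.8 and 43.7 after 7 days, 31.9 and 49.1 after 14 and 40.6 and 42.8 after 21 normalized counts (log2 fold change -1.72 ± 0.23, adjusted p = 5.00e-05, day 7 against day 0). Gins1 had 40.6 and 40.5 at day 0, 14.6 and 16.9 after 7 days, 22.8 and 26.9 after 14 and 24.6 and 14.6 after 21, with a fall at day 7 (log2 fold change -1.31 ± 0.31, adjusted p = 0.00317) and no call at day 14 (log2 fold change -0.69 ± 0.31, adjusted p = 0.0620). DESeq2 did not call Gins1 lower at day 14, whereas edgeR did (adjusted p = 0.0476). So did limma after removal of the length and GC trend (log2 fold change -1.43, adjusted p = 0.000768). Its fall at day 21 (log2 fold change -1.06 ± 0.31, adjusted p = 0.0105) was not called in DESeq2 (adjusted p = 0.0567). The call was also lost without the second day 21 library (log2 fold change -0.70) or without either day 0 library. Gins2 fell at day 7 (-1.86 ± 0.17) and its level is uncertain, since its exons overlap those of Gse1 on the opposite strand over 2758 bases. Gins3, which was not a member, had 70.9 normalized counts at day 7 and 71.2 at day 0 on average (log2 fold change -0.02 ± 0.22, adjusted p = 0.933).

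Primase and polymerase genes were lower in 7 of 7 at each later time. Pole, the catalytic subunit of the polymerase of the leading strand, had 287 and 341 at day 0, 55.6 and 60.6 after 7 days, 24.6 and 24.5 after 14 and 50.2 and 46.7 after 21 normalized counts. Its fall was the largest of the 7 at each later time, with log2 fold changes of -2.41 ± 0.19 at day 7, -3.62 ± 0.19 at day 14 and -2.67 ± 0.19 at day 21. Its second subunit, Pole2, had 66.9 and 66.7 at day 0, 18.2 and 17.8 after 7 days, 21.9 and 26.9 after 14 and 25.6 and 21.4 after 21 (log2 fold change -1.83 ± 0.26, adjusted p = 6.81e-05, day 7 against day 0). Both primase genes fell at day 7, with a log2 fold change of -2.13 ± 0.27 for Prim1, the catalytic subunit, and -0.86 ± 0.15 for Prim2, the large subunit. For polymerase alpha, which extends the primer, the values were -1.52 ± 0.17 for the catalytic subunit Pola1 and -0.90 ± 0.14 for the accessory subunit Pola2. Pold1, the catalytic subunit of the polymerase of the lagging strand, changed little after day 7, with -1.28 ± 0.16, -1.28 ± 0.16 and -1.32 ± 0.16 at days 7, 14 and 21 against day 0.

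Of the 8 genes of the clamp, its loader and single-strand binding, 7 were lower at day 7, 8 at day 14 and 7 at day 21, with median log2 fold changes of -1.17, -0.60 and -1.10. Pcna, the sliding clamp, had 919 and 988 at day 0, 673 and 625 after 7 days, 756 and 739 after 14 and 725 and 652 after 21 normalized counts. It fell at day 7, with log2 fold change -0.55 ± 0.10, adjusted p = 0.000584, and every later library lay below both of day 0. Reads of Pcna could be split with its pseudogenes Pcna-ps1 and Pcna-ps2. Rfc1, the large subunit of the clamp loader, had 682 and 543 at day 0, 544 and 522 after 7 days, 472 and 401 after 14 and 479.6 and 554 after 21. It was not called at day 7 (log2 fold change -0.19 ± 0.14, adjusted p = 0.251) or at day 21 (log2 fold change -0.24 ± 0.14, adjusted p = 0.150), and its call at day 14 (log2 fold change -0.48 ± 0.14, adjusted p = 0.00662) was lost without the first day 0 library (adjusted p = 0.105).

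The small loader subunits did fall at day 7, with log2 fold changes of -1.22 ± 0.11 for Rfc2, -1.26 ± 0.21 for Rfc3, -1.15 ± 0.18 for Rfc4 and -1.26 ± 0.16 for Rfc5. Rfc2 and Rfc5 share exon sequence with Lat2 and Wsb2 on the opposite strand, so their values are uncertain. Rpa1, the large subunit that coats single-stranded DNA, had 2787 and 2807 at day 0, 1206 and 1246 after 7 days, 1272 and 1269 after 14 and 1176 and 1086 after 21 normalized counts (log2 fold change -1.19 ± 0.09, adjusted p = 2.97e-07, day 7 against day 0). Its partner Rpa2 also fell, with a log2 fold change of -0.97 ± 0.14 at day 7. At day 14 the call of Rfc4 (log2 fold change -0.50 ± 0.18, adjusted p = 0.0241) was lost in DESeq2 (adjusted p = 0.102). Without either day 0 library or the first day 14 library it was lost too (log2 fold change between -0.56 and -0.43). That of Pcna (log2 fold change -0.35 ± 0.10, adjusted p = 0.00831) was lost without the second day 0 library (log2 fold change -0.30). Rfc2 at day 14 (-0.52 ± 0.11) was not called after removal of the length and GC trend (adjusted p = 0.262).

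Okazaki fragments are trimmed by Fen1 and sealed by Lig1, and both genes fell. Lig1 had 553 and 552 at day 0, 117 and 143 after 7 days, 120.3 and 139 after 14 and 111 and 105 after 21 normalized counts (log2 fold change -2.09 ± 0.15, adjusted p = 1.94e-07, day 7 against day 0). Fen1 had 552 and 532 at day 0, 194 and 203 after 7 days, 200.4 and 198 after 14 and 187 and 181 after 21 (log2 fold change -1.44 ± 0.12, adjusted p = 6.99e-07), with 1909 bases of exon shared with a predicted antisense gene, Gm10143, which leaves its level uncertain. The later libraries of each gene were close to each other and far below day 0.

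Genes of nucleotide supply were lower in 5 of 5 at day 7, 4 of 5 at day 14 and 5 of 5 at day 21. Tk1, which salvages thymidine, had 401 and 401 at day 0, 31.9 and 26.7 after 7 days, 30.1 and 35.1 after 14 and 32.0 and 31.1 after 21 normalized counts. It fell at day 7 (log2 fold change -3.74 ± 0.20, adjusted p = 1.40e-08) and was at 7.87% of its day 0 mean at day 21. Tyms, which makes thymidylate, had 789.8 and 889 at day 0, 148 and 160.5 after 7 days, 182 and 215 after 14 and 193 and 153 after 21 (log2 fold change -2.44 ± 0.15, adjusted p = 5.18e-08, day 7 against day 0), and reads could be split with the pseudogene Tyms-ps. All 6 later libraries of Tk1 and of Tyms lay below day 0 without overlap.

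Ribonucleotide reductase makes deoxynucleotides from a large subunit, Rrm1, and a small one, Rrm2. Rrm1 had 3641 and 3680.4 at day 0, 876 and 883 after 7 days, 686 and 624 after 14 and 790.4 and 671 after 21 normalized counts (log2 fold change -2.06 ± 0.10, adjusted p = 8.76e-09, day 7 against day 0). Rrm2 had 889 and 966 at day 0, 247 and 261 after 7 days, 403 and 410.2 after 14 and 354 and 182 after 21 (log2 fold change -1.86 ± 0.22, adjusted p = 1.74e-05). The 2 day 21 libraries of Rrm2 stood far apart, and without the second of them its day 21 level was above day 7 (log2 fold change 0.48, adjusted p = 0.0401), whereas with both the difference was -0.00 ± 0.22. Dut, which destroys dUTP before it enters DNA, had 441 and 424 at day 0, 228 and 209.5 after 7 days, 344 and 414 after 14 and 267 and 198 after 21. It was lower at day 7 (log2 fold change -0.98 ± 0.15, adjusted p = 0.000164) and day 21 (log2 fold change -0.91 ± 0.15, adjusted p = 0.000266) but not called at day 14 (log2 fold change -0.20 ± 0.15, adjusted p = 0.270). With the length and GC trend removed, Dut was called lower at day 14 too (log2 fold change -0.57, adjusted p = 0.00226). The alternative small subunit gene Rrm2b, which resting cells use, was not called at day 7 (log2 fold change 0.31 ± 0.15, adjusted p = 0.0931) and was named after its values were seen.

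Chromatin copying genes were lower in 5 of 5 at each later time. Uhrf1, which finds newly copied, still unmethylated strands behind the fork, had 617 and 547 at day 0, 49.2 and 42.8 after 7 days, 18.2 and 25.7 after 14 and 20.3 and 29.2 after 21 normalized counts. It was at 7.91% of its day 0 mean at day 7 (log2 fold change -3.63 ± 0.24, adjusted p = 8.87e-08) and at 3.78% at day 14 (-4.68 ± 0.24). Dnmt1, the methyltransferase that Uhrf1 brings to those strands, had 1251 and 1171 at day 0, 407 and 471 after 7 days, 249.6 and 219.7 after 14 and 268 and 336 after 21 (log2 fold change -1.47 ± 0.13, adjusted p = 1.87e-06, day 7 against day 0). The fall of each deepened by day 14, and the day 14 and day 21 libraries lay below those of day 7.

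The histone chaperone genes Chaf1a and Chaf1b, which set histones onto new DNA, fell at day 7, with log2 fold changes of -1.47 ± 0.14 and -1.85 ± 0.22. Chaf1a shares 2542 bases of exon with Ubxn6 on the opposite strand, which leaves its value uncertain. Slbp, which binds the stem loop of histone mRNA, had 304 and 327 at day 0, 194 and 195 after 7 days, 209.6 and 222 after 14 and 183 and 219.8 after 21 normalized counts and a small fall (log2 fold change -0.69 ± 0.13, adjusted p = 0.000863, day 7 against day 0). Of the recombination genes that protect stalled forks, Brca1 had 132 and 115 at day 0, 28.2 and 24.1 after 7 days, 23.7 and 21.0 after 14 and 16.0 and 21.4 after 21 (log2 fold change -2.20 ± 0.25, adjusted p = 1.29e-05) and Brca2 had a log2 fold change of -1.35 ± 0.25 at day 7. Both were lower than day 0 at days 14 and 21 as well.

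The E2F and cyclin E genes that control entry into S phase were lower in 5 of 5 at each later time, over a wide range. E2f8, a repressor made in S phase under other E2F factors, had 165 and 161 at day 0, 9.11 and 9.81 after 7 days, 3.64 and 1.17 after 14 and 4.27 and 2.92 after 21 normalized counts. At day 7 it was at 5.81% of its day 0 mean (log2 fold change -3.97 ± 0.43, adjusted p = 7.20e-06). Over both libraries it had 330 reads at day 0, 21 at day 7, 5 at day 14 and 7 at day 21. It passed the filter on low values through its day 0 level alone, so a fall was the change open to it. E2f1, an activator of S-phase transcription, had 849.5 and 896 at day 0, 575 and 596 after 7 days, 465 and 527 after 14 and 584 and 702 after 21. It fell far less (log2 fold change -0.58 ± 0.12, adjusted p = 0.00116, day 7 against day 0), and its fall at day 21 (log2 fold change -0.44 ± 0.12, adjusted p = 0.00555) was lost without the second day 0 library or the first day 21 library (adjusted p = 0.0527 and 0.0530).

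E2f2, another activator, had 19.9 and 28.8 at day 0, 8.20 and 12.5 after 7 days, 10.02 and 7.01 after 14 and 3.20 and 3.89 after 21 normalized counts. Its calls at days 7 and 14 were not secure. Its fall at day 7 (log2 fold change -1.16 ± 0.42, adjusted p = 0.0337) was lost when any of the 4 libraries of days 7 and 0 was left out (adjusted p between 0.0507 and 0.206) and in DESeq2 (adjusted p = 0.128). The fall at day 14 (log2 fold change -1.41 ± 0.42, adjusted p = 0.00992) was lost without the second library of day 0 or of day 14 and in DESeq2 (adjusted p = 0.0555), and that at day 21 (log2 fold change -2.46 ± 0.42, adjusted p = 0.000306) was kept in every alternative. Cyclin E1, Ccne1, the partner of Cdk2 at the start of S phase, had 359 and 344 at day 0, 106 and 98.1 after 7 days, 105 and 99.3 after 14 and 83.3 and 101 after 21 (log2 fold change -1.78 ± 0.15, adjusted p = 1.11e-06, day 7 against day 0). Cyclin E2, Ccne2, had 137 and 137 at day 0, 53.7 and 85.6 after 7 days, 54.7 and 72.5 after 14 and 56.6 and 62.3 after 21 (log2 fold change -1.004 ± 0.23, adjusted p = 0.00290), with no call without the first day 7 library (adjusted p = 0.0512).

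**Figure D3:**
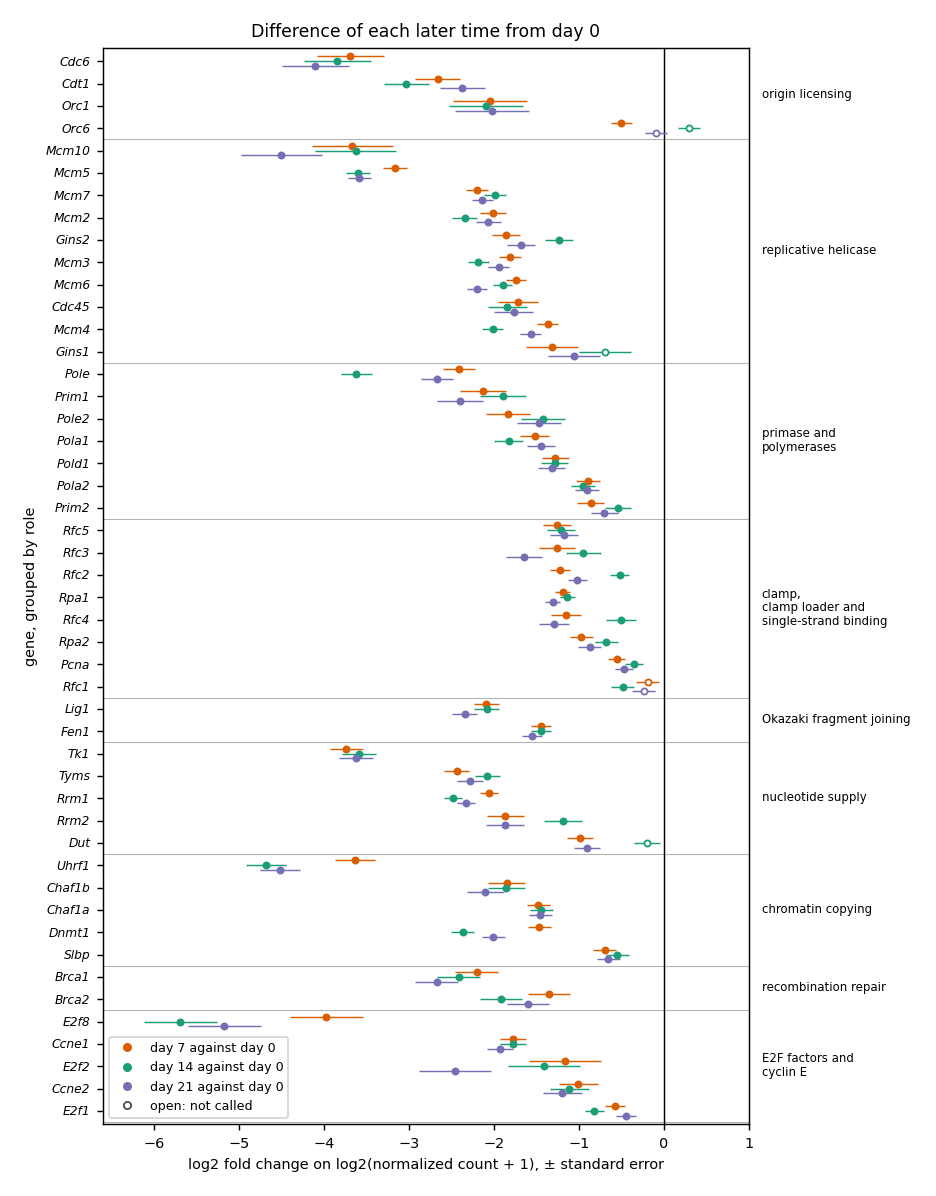
Difference of each later time from day 0 for the 48 genes, as log2 fold change on log2(normalized count + 1) with its standard error, grouped by role and ordered within a role by the day 7 value. Filled points passed adjusted p below 0.05, and the open points are Orc6 at days 14 and 21, Gins1 and Dut at day 14, and Rfc1 at days 7 and 21.

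After the first week fewer members were called. Among days 7, 14 and 21, 17 of the 48 genes were called in at least 1 of the 3 comparisons, against 57.0% of tested genes, and 31 in none, which does not show that their levels were equal. At day 14 against day 7, 8 members were lower and 6 higher, 14 of 48 in all, where 27.0% of tested genes were lower, 25.0% higher and 52.0% called in either direction. The median member difference was 0.00 log2, as was that of all genes. Of these 14 calls, 8 held in every alternative that tested them.

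The 6 that rose at day 14 over day 7 were Orc6 (log2 fold change 0.80 ± 0.13, adjusted p = 0.000352), Dut (log2 fold change 0.79 ± 0.15, adjusted p = 0.00122), Rfc2 (log2 fold change 0.70 ± 0.11, adjusted p = 0.000353), Rrm2 (log2 fold change 0.68 ± 0.22, adjusted p = 0.0226), Rfc4 (log2 fold change 0.65 ± 0.18, adjusted p = 0.00935) and Gins2 (log2 fold change 0.62 ± 0.17, adjusted p = 0.00768). Dut and Rfc2 kept the call throughout. Rrm2 lost it without either day 7 library or the second day 14 library, Rfc4 without the first day 7 library, and Gins2 without the second library of day 7 or of day 14. Orc6, Rfc2, Rfc4 and Gins2 overlap a gene on the opposite strand, so their levels are uncertain. At day 21 all but Gins2 were called lower than at day 14 by limma. Gins2 was also below (log2 fold change -0.44 ± 0.17, adjusted p = 0.0552), and edgeR called it (adjusted p = 0.0493). Of the 6, 0 were called between days 21 and 7 in limma, edgeR or DESeq2.

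The 8 that fell were E2f8 (log2 fold change -1.72 ± 0.43, adjusted p = 0.00523), Pole (log2 fold change -1.21 ± 0.19, adjusted p = 0.000289), Uhrf1 (log2 fold change -1.05 ± 0.24, adjusted p = 0.00304), Dnmt1 (log2 fold change -0.90 ± 0.13, adjusted p = 0.000235), Mcm4 (log2 fold change -0.65 ± 0.12, adjusted p = 0.000994), Mcm5 (log2 fold change -0.44 ± 0.14, adjusted p = 0.0201), Rrm1 (log2 fold change -0.43 ± 0.10, adjusted p = 0.00467) and Mcm3 (log2 fold change -0.37 ± 0.13, adjusted p = 0.0254). Mcm5 lost its call without either day 7 library, and Mcm3 without either day 7 library or the first of day 14, and DESeq2 called neither (adjusted p = 0.0863 for Mcm5 and 0.0670 for Mcm3). Pole and Mcm4 were higher again in the following week (log2 fold change 0.95 ± 0.19, adjusted p = 0.00329 for Pole, log2 fold change 0.45 ± 0.12, adjusted p = 0.0150 for Mcm4).

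These second-week differences ran with transcript length, as did those of all genes. The 6 genes that rose had transcripts of 1228 to 4995 bases, with a median of 2071, and the 8 that fell had 3031 to 7163 bases, with a median of 3640, against a median of 2984 over all 48. Per doubling of length the log2 difference of day 14 from day 7 changed by -0.39 over the 48 members and by -0.38 over 13421 tested genes. Across the 48 genes the correlation was -0.55 (Pearson) and -0.58 (Spearman), a description across genes that share the same libraries. With the trend on length and GC content removed, Orc6 (0.18), Rfc4 (-0.00171) and Rrm2 (0.40) were no longer called higher, and Mcm5 (-0.28) was no longer called lower. In the same setting Rpa1 (0.44), Tyms (0.41) and Chaf1a (0.56) were newly called higher and Pcna (-0.32) lower, so the counts were again 8 lower and 6 higher, over partly different genes. Against day 0 the change per doubling was -0.18, -0.57 and -0.37 over members at days 7, 14 and 21. Over 13421 tested genes it was -0.01, -0.39 and -0.14. With the trend on length and GC content removed, the median member differences from day 0 were -1.71, -1.78 and -1.92. The medians over all genes were then -0.08, -0.09 and -0.11. RNA quality was not measured in the files, and its part in these differences was not tested.

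**Figure D4:**
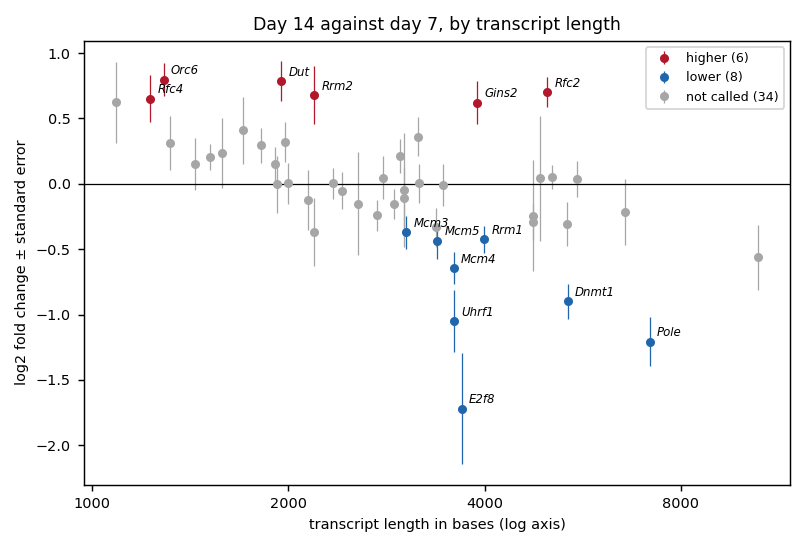
Log2 fold change of day 14 against day 7, with its standard error, against transcript length in bases (log axis) for the 48 genes. Red points are the 6 genes called higher and blue points the 8 called lower, and 4 of the 6 red points lie to the left of all blue points.

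In the third week, day 21 against day 14, 6 members were lower and 3 higher, where 14.3% of tested genes were lower and 20.2% higher. The lower ones were Rfc4 (-0.79 ± 0.18), Dut (-0.71 ± 0.15), Rfc3 (-0.70 ± 0.21), Rrm2 (-0.68 ± 0.22), Rfc2 (-0.50 ± 0.11) and Orc6 (-0.39 ± 0.13). The higher ones were Pole (0.95 ± 0.19), Mcm4 (0.45 ± 0.12) and E2f1 (0.37 ± 0.12). Dut and Rfc2 held in every alternative. Mcm4 lost its call without the second day 21 library, Rfc3 without the second library of day 14 or of day 21 or on removal of the length and GC trend, and Orc6, Rrm2 and E2f1 without any of several libraries, Orc6 also in DESeq2. Pole and Rfc4 lost theirs on removal of the length and GC trend (adjusted p = 0.0556 and 0.0871). In that setting Orc6 (-0.04, adjusted p = 0.818) and Rrm2 (-0.54, adjusted p = 0.0762) were not called either. Newly called lower there were Mcm6, Gins2, Rpa1 and E2f2. Per doubling of length the difference of day 21 from day 14 changed by 0.20 log2 over the 48 members and 0.25 over 13421 genes.

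Between day 21 and day 7, 3 members were lower and 0 higher, where 3.28% of tested genes were lower and 5.46% higher. These were Uhrf1 (log2 fold change -0.89 ± 0.24, adjusted p = 0.0389), Dnmt1 (log2 fold change -0.54 ± 0.13, adjusted p = 0.0287) and Mcm6 (log2 fold change -0.46 ± 0.11, adjusted p = 0.0283), and each lost its call without either library of day 0 or of day 7. Mcm6 also lost it without the second day 21 library, and Uhrf1 and Dnmt1 without the first or without a filter on low values. Uhrf1 was not called in DESeq2 (adjusted p = 0.0519). At an unadjusted p below 0.05 limma and edgeR each had 7 members lower and 1 higher, and DESeq2 had 6 lower and 1 higher. With adjustment edgeR called 3 lower and DESeq2 2 lower, and both called 0 higher. The other 45 members had no call in this comparison.

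Of 68 genes that share these roles but lie outside the 48, 41 (60.3%) were lower and 6 (8.82%) higher at day 7 than at day 0, against 27.9 and 27.5% of tested genes, with a median log2 fold change of -0.69. At day 14, 40 (58.8%) were lower and 14 (20.6%) higher, against 35.6 and 35.2% (median -0.76). At day 21, 40 (58.8%) were lower and 7 (10.3%) higher, against 29.5 and 29.8% (median -0.76). Among those with 50 or more normalized counts in the higher group, the 4 largest falls at day 7 were in Exo1, a nuclease of mismatch repair (log2 fold change -4.15 ± 0.39, adjusted p = 2.15e-06), E2f7, the close relative of E2f8 (log2 fold change -3.91 ± 0.43, adjusted p = 9.48e-06), Ticrr, which helps fire origins (log2 fold change -3.48 ± 0.41, adjusted p = 1.44e-05), and Asf1b, a histone chaperone (log2 fold change -3.22 ± 0.23, adjusted p = 2.21e-07). Above that floor the same 4 had the largest falls at days 14 and 21.

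Exo1 had 99.5 and 91.5 at day 0, 5.47 and 3.57 after 7 days, 7.29 and 5.84 after 14 and 4.27 and 6.81 after 21 normalized counts. E2f7 had 159 and 157 at day 0, 7.29 and 12.5 after 7 days, 3.64 and 2.34 after 14 and 3.20 and 7.78 after 21. In every later library both lay far below day 0. Exo1 and E2f7 passed the filter on low values through their day 0 level alone, so a fall was the change open to them. By contrast Rnaseh2a, a subunit of the nuclease that removes ribonucleotides from DNA, had 304 normalized counts at day 7 and 312 at day 0 on average and was not called (log2 fold change -0.04 ± 0.16, adjusted p = 0.858). The 6 that rose at day 7 are named after their values were seen. The pocket protein gene Rbl2, a partner of repressive E2F factors (log2 fold change 1.52 ± 0.10, adjusted p = 8.71e-08) and the repressor E2f6 (log2 fold change 1.08 ± 0.09, adjusted p = 8.57e-07) rose, as did Tfdp2, a partner of E2F factors (log2 fold change 1.24 ± 0.11, adjusted p = 1.29e-06). The other 3 were Orc5, Samhd1, which breaks down deoxynucleotides (0.42 ± 0.10), and the mitochondrial thymidine kinase Tk2 (0.74 ± 0.12).

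At day 14 against day 7, 17 of the 68 (25.0%) were higher, the same share as of all tested genes, and 12 (17.6%) lower, against 27.0%. Gmnn, the inhibitor of Cdt1, was 2.19-fold higher (log2 fold change 1.12 ± 0.19, adjusted p = 0.000505) and at day 21 lower again (log2 fold change -0.98 ± 0.19, adjusted p = 0.00294). Rpa3, the small subunit that binds single-stranded DNA with Rpa1 and Rpa2, was 2.06-fold higher at day 14 (log2 fold change 1.04 ± 0.18, adjusted p = 0.000516) and lower at day 21 (log2 fold change -1.01 ± 0.18, adjusted p = 0.00184). Pole4, a small subunit with Pole (log2 fold change 0.79 ± 0.13, adjusted p = 0.000342), and E2f5 (log2 fold change 0.76 ± 0.17, adjusted p = 0.00264) also rose. Over all genes the log2 difference per doubling of length was -0.38 in this week and 0.25 in the next. The part of length in the values of these 4 genes was not tested. Between days 21 and 7, 0 of the 68 were called in limma, edgeR or DESeq2, and at an unadjusted p below 0.05 limma had 4 lower and 5 higher. At days 7, 14 and 21, mitosis genes were lower than day 0 in 24 of 24, against 27.9, 35.6 and 29.5% of tested genes. Their median log2 fold changes at these times were -3.74, -4.20 and -4.22, and their difference from the 48 was not tested.

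Because the members moved together, their promoters were read for the letters that E2F factors are known to bind. Promoters were those of RefSeq on GRCm38.p6, from 250 bases before to 50 bases after a start, and 41 of the 48 genes had one. The consensus searched was TTTCCCGC, TTTCGCGC, TTTGCCGC or TTTGGCGC on either strand, and a shorter core dropped its first letter, so each consensus match holds a core match. A match is a description of letters, not a site in use. The stretches below are shown because they belong to 5 genes with the consensus and to 5 without it in any listed promoter. Of those without it, E2f8 and Tk1 had the 2 largest falls at day 7, and Pcna, Orc6 and Rfc1 the 3 smallest differences. Each is read 5′ to 3′ on the strand of its gene and ends at or before the base ahead of the start, and capitals mark consensus letters on either strand.
Cdc6: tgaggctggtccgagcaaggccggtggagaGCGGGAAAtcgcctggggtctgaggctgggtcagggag
Uhrf1: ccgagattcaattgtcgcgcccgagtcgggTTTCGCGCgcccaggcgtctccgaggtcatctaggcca
Mcm5: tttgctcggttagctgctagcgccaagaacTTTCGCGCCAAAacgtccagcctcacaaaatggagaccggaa
Orc1: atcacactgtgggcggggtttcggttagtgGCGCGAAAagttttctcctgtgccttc
Mcm6: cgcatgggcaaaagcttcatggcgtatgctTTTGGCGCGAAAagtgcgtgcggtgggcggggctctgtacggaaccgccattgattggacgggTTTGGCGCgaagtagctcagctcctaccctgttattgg
E2f8: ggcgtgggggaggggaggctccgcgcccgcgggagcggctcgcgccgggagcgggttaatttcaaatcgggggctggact
Tk1: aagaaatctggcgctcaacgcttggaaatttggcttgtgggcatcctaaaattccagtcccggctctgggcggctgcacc
Pcna: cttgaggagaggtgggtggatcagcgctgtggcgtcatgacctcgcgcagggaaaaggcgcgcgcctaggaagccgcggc
Orc6: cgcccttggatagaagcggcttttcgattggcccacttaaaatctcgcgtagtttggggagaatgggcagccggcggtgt
Rfc1: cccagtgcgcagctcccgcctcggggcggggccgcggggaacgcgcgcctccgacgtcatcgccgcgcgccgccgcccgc

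The coordinates on GRCm38.p6 are chr11:98907983-98908050 (plus strand) for Cdc6, chr17:56304098-56304165 (plus strand) for the second listed promoter of Uhrf1, chr8:75109326-75109397 (plus strand) for Mcm5, chr4:108579397-108579453 (plus strand) for Orc1 and chr1:128359715-128359845 (minus strand) for Mcm6. Those without the consensus are chr7:48881597-48881676 (minus strand) for E2f8, chr11:117826015-117826094 (minus strand) for Tk1, chr2:132253181-132253260 (minus strand) for Pcna, chr8:85299552-85299631 (plus strand) for Orc6 and chr5:65335640-65335719 (minus strand) for Rfc1, each the 80 bases ahead of the start. In Mcm5 and Mcm6 a forward and a reverse match overlap in the same run of capitals, and Mcm6 holds 3 matches in all. The consensus also lay ahead of the start in Mcm7, Pola1, Dnmt1, Brca2 and Rfc3, whose stretches are not shown. Their log2 fold changes at day 7 were -2.20, -1.52, -1.47, -1.35 and -1.26. Of the 5 without the consensus, E2f8 has the core, upstream of the stretch shown, and Rfc1 has it after its start. Absence of a match says only that these letters are not in the window read.

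The consensus was in a promoter of 16 of the 41 members (39.0%), against 4.57% of the 10049 tested genes with a listed promoter and 2.26% of all 32851 promoters. The core was in 27 members (65.9%), against 19.1% of tested genes and 9.57% of promoters. For the other replication and S-phase genes the consensus share was 40.0% of 50, and for mitosis genes 4.76% of 21. The letters CCAAT were in 61.0% of members and in 81.0% of mitosis genes, against 42.8% of tested genes and 37.4% of promoters. The CHR element TTTGAA, known from promoters of mitosis genes, was in 14.6% of members and 71.4% of mitosis genes, against 14.1% of tested genes and 17.9% of promoters.

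**Figure D5:**
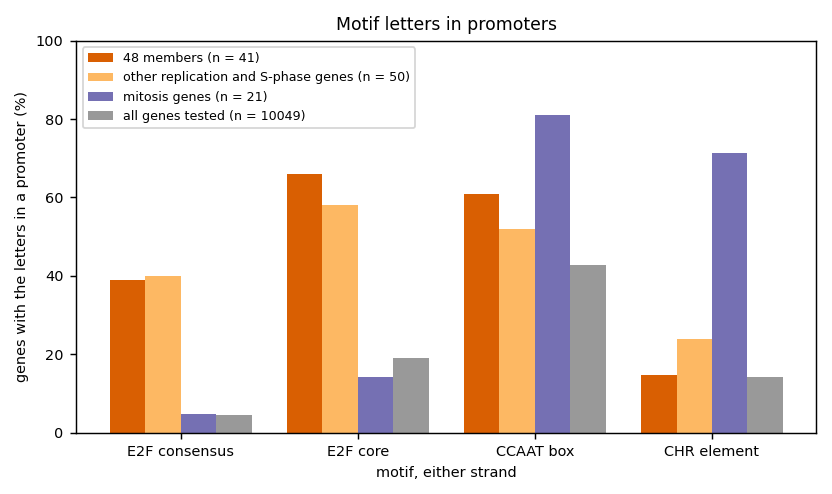
Share of genes (percent) with the letters of 4 promoter motifs in a listed promoter, on either strand, for the 48 members, the other replication and S-phase genes, mitosis genes and all tested genes with a listed promoter. The E2F consensus was in 39.0% of the 41 members with a promoter and 4.57% of tested genes.

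The size of the fall spread widely with and without these letters. Members with the consensus had a median log2 fold change of -1.82 at day 7 (n = 16, from -3.69 in Cdc6 to -1.16 in E2f2). Members without it had a median of -1.48 (n = 25, from -3.97 in E2f8 to -0.19 in Rfc1). The 2 ranges overlapped over most of their length, and the difference was not tested.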

How the data were processed

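The members and every gene list were chosen with earlier results of these data known. The authors deposited a normalized count per gene, a signal of reads divided by 1 size factor per library. Named in the submitters' processing notes are mm9, DESeq, HTSeq 0.6.1 and TopHat2 2.0.11, without roles or order. For the gene annotation and the make-up of the medium the answer is not given in the sources used here. Values step in whole reads, and 100% were whole within 0.01 reads after division by that step.

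Values were log2-transformed after adding 1. A gene was tested if 2 or more of the 8 libraries held 10 or more normalized counts, which left 13527, and 6 comparisons between times were fitted with limma 3.58.1 (trend) over all 8 libraries, with 4 residual and 8.16 prior degrees of freedom. The design asked for edgeR if the file held whole counts, but it held normalized values, so limma was used. Benjamini-Hochberg adjustment covered all tested genes, with calls at adjusted p below 0.05. Errors of fold changes are standard errors, and percentages of day 0 are ratios of means over 2 libraries.

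Recovered reads were also fitted with edgeR 4.0.16 (quasi-likelihood), which called 7581 genes for day 7, 9633 for day 14 and 8055 for day 21 against day 0, and with DESeq2 1.42.0, which called 6642, 8841 and 7187. For day 14 against day 7 these tools called 7167 and 6157 genes, for day 21 against day 14 they called 4820 and 3963, and for day 21 against day 7 they called 1361 and 1193. Other alternatives were a replicate block, each library left out in turn, TMM scaling, pseudocounts of 0.5 and 5, no filter, a mean of at least 50, and removal of a trend on length and GC content. The fits were tested on simulated data.

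All 48 members may be named. From the 68 other pathway genes, the rule took in each comparison the 4 called genes with the largest change and the 3 uncalled ones with the smallest, at 50 or more normalized counts in the higher group. Transcript lengths came from GENCODE M21, matched for 98.4% of symbols, and promoters from RefSeq on GRCm38.p6, a build other than mm9. Python 3.11.15 and matplotlib 3.10.9 drew the figures.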

Additional observations from a re-analysis of the deposited data

How the results depend on the processing

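The falls below day 0 held best. Of the calls against day 0, 45 of 47 at day 7, 40 of 45 at day 14 and 44 of 46 at day 21 were kept in every one of the 17 alternatives that tested them, against 8 of 14 for day 14 against day 7, 2 of 9 for day 21 against day 14 and 0 of 3 for day 21 against day 7. The count of members higher at day 14 than day 0 (0) was 1 with edgeR, TMM scaling or a mean of at least 50, and 0 to 1 with a library left out. With a library left out, members lower at day 21 than day 14 (6) numbered 3 to 10 and members higher (3) numbered 1 to 4. For day 21 against day 7, members lower (3) numbered 0 to 5 and members higher (0) 0 to 2, and without a filter 1 was lower. Removal of the length and GC trend turned round Orc6 at day 14 against day 0 (log2 -0.42), Pcna at day 14 against day 7 (-0.32) and Rfc4 in the same comparison (-0.00171), and leaving out the second day 21 library turned round Rrm2 at day 21 against day 7 (0.48, against -0.48 without the first). The cause was not tested.

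The replicate numbers were not treated as pairs, since differences between same-numbered libraries correlated at -0.0356 to 0.0737 across times. With the replicate block the counts of lower and higher members were 47 and 0, 45 and 0, 46 and 0, 8 and 6, 6 and 3, and 2 and 0, and the call lost was that of Uhrf1 at day 21 against day 7. E2f8, Mcm10, Cdc6, Orc1 and E2f2 had under 20 reads over both libraries at some later times, which limits their precision, and of these E2f8 alone had a call among days 7, 14 and 21.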
